A study of Mus musculus with 5 samples.

Results

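Malat1-rich barcodes were the barcodes of each single-cell library with the largest share of unique molecular identifiers (UMIs, the tags that count single RNA molecules) in Malat1. In every library the 5% of barcodes with the highest Malat1 share, 500 of 10000, were set against the 50% with the lowest share, 5000 of 10000, with ties taken in file order. Over the 5 libraries this gave 2500 Malat1-rich barcodes and 25000 Malat1-poor barcodes of 50000 in all. Because the Malat1 share chose the barcodes, its own difference between them is a description. Levels of all other genes are given as CPM, here UMIs per 1000000 UMIs outside Malat1, so that a larger Malat1 share did not by itself lower every other gene.

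The cells were REX-1 RFP mouse embryonic stem cells, in which the promoter of Rex1 (Zfp42), a gene of naive pluripotency, controls a red fluorescent protein. They were cultured for 72 h without leukaemia inhibitory factor (LIF) in the library named ND, with LIF in the library named NS, and with LIF and sorbitol, an osmotic stressor, at 200, 250 or 300 mM. The labels do not spell out NS and ND, and 1 library stands for each condition. Intervals therefore cover counting error only, and barcodes of a library are not replicates of its condition.

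Malat1 is an abundant long non-coding RNA that stays in the nucleus, at nuclear speckles, which are compartments rich in splicing factors. It has no ordinary poly(A) tail: RNase P cuts its 3′ end, and a U-rich and A-rich stretch near the end folds into a triple helix that protects the RNA. Its neighbour Neat1, the scaffold of paraspeckles, ends in the same kind of structure. Ribosomal protein mRNAs are translated in the cytosol and mitochondrial mRNAs stay in mitochondria, so these groups give RNAs of 3 different compartments to set beside Malat1.

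The processed 3′ regions of Malat1 (chr19:5795690-5802672, minus strand, mm10) and of Neat1 (chr19:5824708-5845478, minus strand) are shown because these neighbouring genes, 22.0 kb apart and on the same strand, were both higher in Malat1-rich barcodes. The stretches were read 5′ to 3′ from the GENCODE M21 transcripts, from base 6580 to 6715 of 6983 in Malat1 and from base 20653 to 20771 of 20771 in Neat1. Capitals mark a run of 16 bases that both transcripts hold in their last 500 bases.
Malat1: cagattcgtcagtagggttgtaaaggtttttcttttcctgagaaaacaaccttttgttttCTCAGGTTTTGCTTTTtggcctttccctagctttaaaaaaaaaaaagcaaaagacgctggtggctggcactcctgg
Neat1: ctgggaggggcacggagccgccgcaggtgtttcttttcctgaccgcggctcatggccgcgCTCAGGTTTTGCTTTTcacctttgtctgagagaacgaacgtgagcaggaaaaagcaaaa
The run begins at base 6640 of Malat1 and at base 20713 of Neat1. Malat1 also holds a run of 12 A, 298 bases before its annotated end, whereas the longest run of A in Neat1 is 7.

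The Malat1 level itself differed between the libraries. Summed over all barcodes it reached 12484 in ND, 14103 in NS and 22949, 22155 and 16638 at 200, 250 and 300 mM sorbitol, in UMIs per 1000000 UMIs (CPM). The exact Poisson 95% intervals of these levels, such as 14054 to 14152 in NS, did not overlap for neighbours in the order of levels. The highest levels were those at 200 and 250 mM sorbitol and the lowest was that of ND, and with 1 library per condition none of these differences has a replicate check.

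Single barcodes differed widely within each library. The median Malat1 share of a barcode was 1.17% in ND, 1.33% in NS and 2.19%, 2.07% and 1.59% at 200, 250 and 300 mM sorbitol. The highest share was 6.44% in ND, 4.81% in NS and 7.82%, 7.62% and 7.07% at 200, 250 and 300 mM sorbitol. The number of barcodes without a Malat1 UMI, of 10000 each, was 74 in ND, 3 in NS and 10, 7 and 38 at 200, 250 and 300 mM sorbitol. The last barcode inside the Malat1-rich group had a share of 2.51% in ND, 2.67% in NS and 4.30%, 4.20% and 3.22% at 200, 250 and 300 mM sorbitol. The first outside it had 2.50% in ND, 2.67% in NS and 4.30%, 4.20% and 3.22% at 200, 250 and 300 mM sorbitol. The group is therefore the upper end of a continuous range. The highest share among Malat1-poor barcodes was 1.17% in ND, 1.33% in NS and 2.19%, 2.07% and 1.59% at 200, 250 and 300 mM sorbitol.

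**Figure D1:**
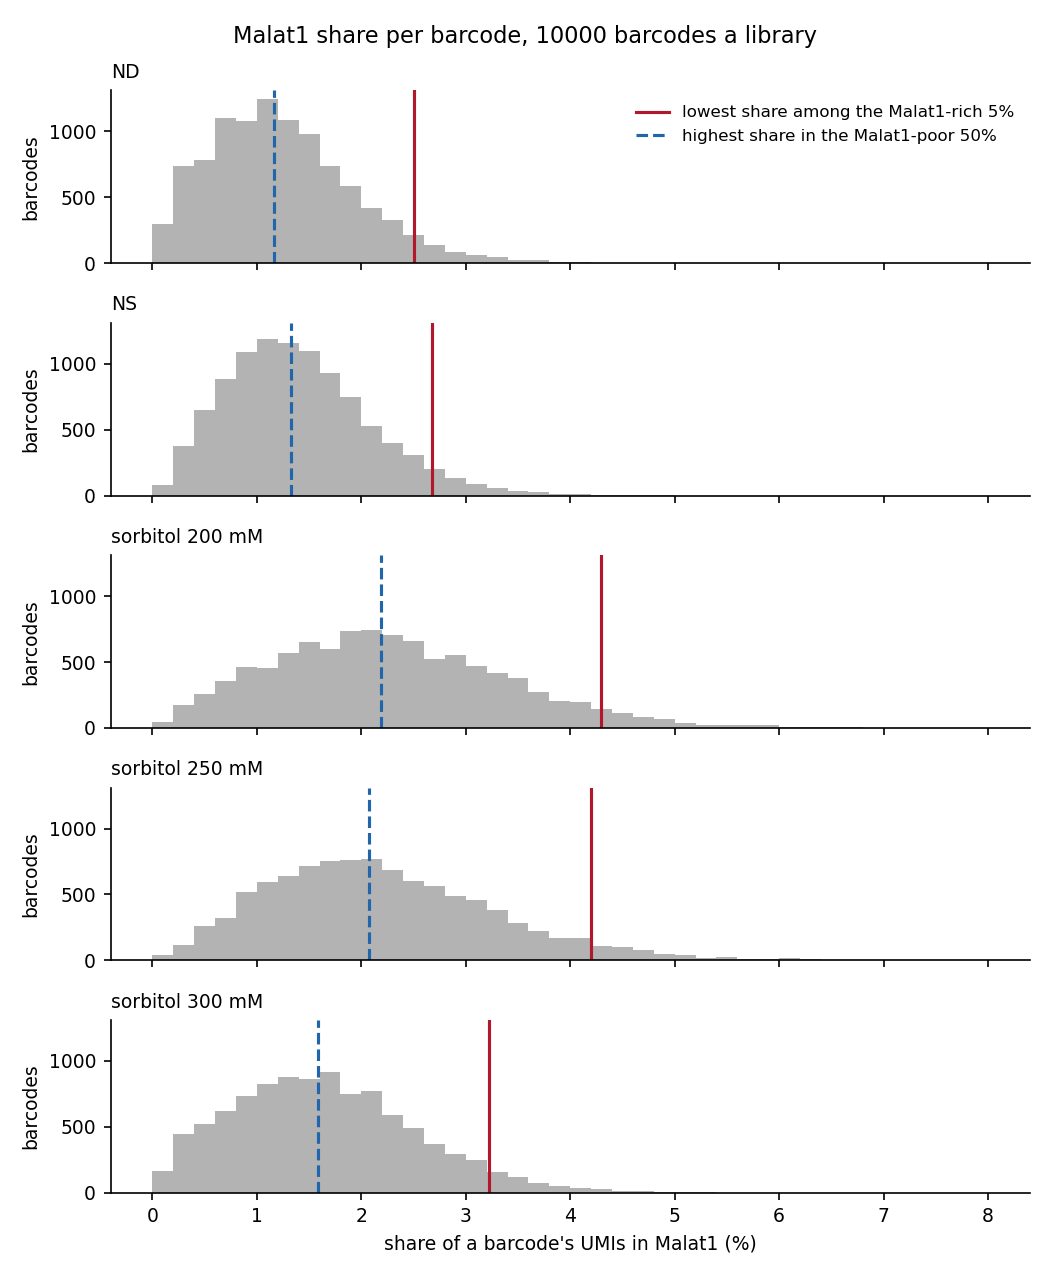
Histograms of the share of a barcode's UMIs in Malat1 (%, in steps of 0.2) in the 5 libraries of 10000 barcodes each, with the number of barcodes on the vertical axis. Solid lines mark the lowest share among Malat1-rich barcodes and dashed lines the highest among Malat1-poor barcodes; every library has a single broad hump, and at 200 and 250 mM sorbitol it lies farther to the right than in ND and NS.

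Pooled over barcodes, the share of UMIs in Malat1 was 2.98% in Malat1-rich against 0.7002% in Malat1-poor barcodes of ND, 3.10% against 0.863% in NS, 4.94% against 1.39% at 200 mM, 4.87% against 1.35% at 250 mM and 3.75% against 0.958% at 300 mM sorbitol. Relative to UMIs outside Malat1 these are folds of 4.35 in ND, 3.68 in NS and 3.67, 3.73 and 4.03 at 200, 250 and 300 mM sorbitol. Medians of Malat1 UMIs per barcode were 24 in Malat1-rich against 6 in Malat1-poor barcodes of ND, 66 against 19 in NS, 44 against 13 at 200 mM, 46 against 13 at 250 mM and 30 against 8 at 300 mM sorbitol. At such counts some spread arises from counting alone, so the spread was set against it. The variance of Malat1 over barcodes, divided by that of 1 shared profile sampled at each barcode's depth, was 3.36 in ND, 7.68 in NS and 5.28, 5.34 and 4.04 at 200, 250 and 300 mM sorbitol. Among genes with a mean of at least 1 UMI per barcode, Malat1 ranked first of 131 in ND, 265 in NS and 119, 130 and 108 at 200, 250 and 300 mM sorbitol, where the median gene stood at 1.04 to 1.07. The gene ranked next was Mt1, a metallothionein, in ND at 1.41, Gm42418 in NS at 3.35 and at 250 mM at 1.41, and mt-Co1 at 200 and 300 mM at 1.29 and 1.25. For the same relative spread, the variance ratio is larger where the mean count is larger. Its order over the libraries was that of their Malat1 UMIs, from 105914 in ND, the lowest, to 312501 in NS, the highest. The variance ratio therefore does not rank libraries, or genes of unlike abundance, by relative spread. At 300 mM, mt-Co1 (15880 CPM in Malat1-poor barcodes) was nearly as abundant as Malat1 (16638 CPM over all barcodes), at 1.25 against 4.04.

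When each barcode's UMIs were divided at random into 2 equal parts and barcodes were chosen on 1 part, the Malat1 fold was 5.19 in ND, 3.90 in NS and 4.01, 4.01 and 4.68 at 200, 250 and 300 mM sorbitol in the UMIs used for the choice. In the UMIs not used for it the fold was 2.45 in ND, 2.86 in NS and 2.54, 2.66 and 2.43 at 200, 250 and 300 mM sorbitol. The difference between the groups thus persisted in UMIs that the choice had not seen, at a smaller size. In those unseen UMIs, Malat1 held 2.25% in Malat1-rich against 0.918% in Malat1-poor barcodes of ND, 2.74% against 0.958% in NS, 4.11% against 1.62% at 200 mM, 4.17% against 1.57% at 250 mM and 2.90% against 1.19% at 300 mM sorbitol.

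Malat1-rich and Malat1-poor barcodes had nearly the same depth, but many deposited barcodes of each library already lay close together in depth. The fewest UMIs in a barcode, against the library's median, were 741 against 818 in ND and 1897 against 2135 in NS. Under sorbitol they were 812 against 887 at 200 mM, 827 against 939 at 250 mM and 729 against 800 at 300 mM. Near-equal medians are therefore no trait of Malat1-rich barcodes. The median number of UMIs per barcode was 826 in Malat1-rich against 811 in Malat1-poor barcodes of ND, 2139 against 2119 in NS, 886 against 882 at 200 mM, 935 against 929 at 250 mM and 801 against 797 at 300 mM sorbitol. Genes per barcode had medians of 547 in Malat1-rich against 542 in Malat1-poor barcodes of ND, 1124 against 1087 in NS, 575 against 579 at 200 mM, 619 against 620 at 250 mM and 556 against 559 at 300 mM sorbitol. After thinning every barcode to 400 UMIs outside Malat1, which left none out, the median was 311 in Malat1-rich against 307 in Malat1-poor barcodes of ND, 307 against 300 in NS, 310 against 306 at 200 mM, 319 against 313 at 250 mM and 320 against 316 at 300 mM sorbitol, so Malat1-rich barcodes held slightly more genes at equal depth in all 5 libraries. Of the libraries, NS was the deepest, with 22158653 UMIs against 8404105 to 9766705 in the others, and its ratios are therefore the most precise. Any pair of libraries shared 34 to 54 barcode sequences of 10000, and at most 1 that was Malat1-rich in both.

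Few genes differed strongly with the Malat1 share. A gene counted as measured where the mean of its levels in the 2 groups was at least 100 CPM, and the number of such genes was 1536 in ND, 1472 in NS and 1518, 1613 and 1667 at 200, 250 and 300 mM sorbitol. The number of genes at least 1.5-fold higher in Malat1-rich than in Malat1-poor barcodes was 33 in ND, 25 in NS and 28, 38 and 34 at 200, 250 and 300 mM sorbitol. As a share of those measured this was 2.15% in ND, 1.7% in NS and 1.84%, 2.36% and 2.04% at 200, 250 and 300 mM sorbitol. The number at least 1.5-fold lower was 2 in ND, 0 in NS and 6, 10 and 9 at 200, 250 and 300 mM sorbitol. As a share this was 0.13% in ND, 0% in NS and 0.395%, 0.62% and 0.54% at 200, 250 and 300 mM sorbitol. For the gene in the middle of the order, the log2 ratio was 0.025 in ND, 0.0030 in NS and 0.0090, -0.00055 and 0.013 at 200, 250 and 300 mM sorbitol. With 1 library per condition these are counts by size, with no test. They depended on the settings: with the 10% of barcodes of highest share in place of 5%, the numbers of higher genes were 12 in ND, 14 in NS and 18, 22 and 20 at 200, 250 and 300 mM sorbitol. With a minimum of 50 CPM they were 117 in ND, 81 in NS and 119, 158 and 138 at 200, 250 and 300 mM sorbitol.

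Many differences had the same direction in all libraries, whose cells and UMIs are separate. Of 1170 genes measured in every library, 210 were higher in Malat1-rich barcodes in all 5 (17.9%) and 204 were lower in all 5 (17.4%). Pearson's r between the log2 ratios of 2 libraries ranged from 0.49 to 0.64 over the 10 pairs, across genes, which are not independent of each other. Exactly 3 genes were at least 1.5-fold higher in all 5 libraries (0.256% of 1170), namely Kcnq1ot1, Neat1 and Pnn. Kcnq1ot1 and Neat1 are nuclear RNAs, and Pnn encodes a nuclear speckle protein. No gene (0%) was 1.5-fold lower in all 5.

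Kcnq1ot1 (chr7:143203458-143296549, minus strand), a nuclear antisense RNA within the imprinted Kcnq1 locus that silences neighbouring genes on the paternal chromosome, showed the largest median ratio of the named genes outside the mitochondrial genome. Its level was 439 CPM in Malat1-rich against 292 CPM in Malat1-poor barcodes of ND, and 522 against 249 CPM in NS. With sorbitol it was 494 against 259 CPM at 200 mM, 754 against 409.8 CPM at 250 mM and 689 against 348 CPM at 300 mM. These are log2 ratios of 0.59 in ND, 1.07 in NS and 0.93, 0.88 and 0.98 at 200, 250 and 300 mM sorbitol, and the 95% interval in NS was 0.93 to 1.20. Malat1-rich barcodes were higher in every library, and ND showed the smallest ratio. Because the use of strand in the counting is not given in the sources used here, reads of Kcnq1 and Kcnq1ot1 cannot be told apart.

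Neat1 was 187 CPM in Malat1-rich against 116 CPM in Malat1-poor barcodes of ND, and 308 against 149.8 CPM in NS. The sorbitol libraries gave 526 against 340.2 CPM at 200 mM, 462 against 268 CPM at 250 mM and 407 against 250.1 CPM at 300 mM. The log2 ratios were 0.68 in ND, 1.04 in NS and 0.63, 0.79 and 0.70 at 200, 250 and 300 mM sorbitol. Neat1 was higher in Malat1-rich barcodes in all 5 libraries, although its own level varied between them and was highest under sorbitol.

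Meg3 (chr12:109541001-109571726, plus strand), an imprinted long non-coding RNA expressed from the maternal chromosome, was 240.2 CPM in Malat1-rich against 131 CPM in Malat1-poor barcodes of ND, and 123 against 67.5 CPM in NS. Under sorbitol it was 158 against 85.6 CPM at 200 mM, 126 against 68.4 CPM at 250 mM and 72.4 against 71.2 CPM at 300 mM. Its log2 ratio was 0.88 in ND, 0.87 in NS and 0.88, 0.88 and 0.023 at 200, 250 and 300 mM sorbitol, so 4 libraries gave nearly the same ratio and 300 mM sorbitol gave none beyond counting error (95% interval -0.58 to 0.58). Its mean level was under 100 CPM in NS, at 250 mM and at 300 mM. H19, an imprinted RNA found in the cytoplasm as well, which was in the list of cytosolic or mixed long non-coding RNAs, had log2 ratios of 0.78 in ND, 0.52 in NS and 0.45, 0.80 and 0.40 at 200, 250 and 300 mM sorbitol. H19 was therefore also higher in Malat1-rich barcodes in all 5 libraries.

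The list of nuclear long non-coding RNAs held 46 genes other than Malat1, of which 1, 4833439L19Rik, is annotated as protein-coding in GENCODE M21, and most were under the minimum level. The number measured was 7 in ND, 5 in NS and 8, 8 and 7 at 200, 250 and 300 mM sorbitol. A log2 ratio above 0 was found for 7 of 7 in ND, 5 of 5 in NS and 6 of 8, 7 of 8 and 7 of 7 at 200, 250 and 300 mM sorbitol. Over all measured genes the same was found for 838 of 1536 in ND, 744 of 1472 in NS and 786 of 1518, 803 of 1613 and 872 of 1667 at 200, 250 and 300 mM sorbitol. The number of list members at least 1.5-fold higher was 3 in ND, 2 in NS and 3, 2 and 2 at 200, 250 and 300 mM sorbitol, where 1.7% to 2.36% of all measured genes were, and none was 1.5-fold lower. Their summed level had a log2 ratio of 0.30 in ND, 0.32 in NS and 0.39, 0.42 and 0.38 at 200, 250 and 300 mM sorbitol, with 95% intervals from 0.23 at the lowest bound to 0.48 at the highest. A higher sum was not particular to nuclear RNAs. The 8 cytosolic or mixed long non-coding RNAs, H19 among them, had 0.23 in ND, 0.19 in NS and 0.37, 0.58 and 0.21 at 200, 250 and 300 mM sorbitol. Intervals of that sum also lay above 0 in every library. The nuclear list did not move as 1 block. Gm42418 and Gm26917, gene models that overlap the ribosomal RNA repeat and whose counts are uncertain for that reason, made up much of the sum and had log2 ratios of 0.19 to 0.38 and 0.10 to 0.26. Without this pair the ratio of the sum was 0.37 in ND, 0.55 in NS and 0.44, 0.53 and 0.52 at 200, 250 and 300 mM sorbitol. Tsix, the antisense partner of Xist, had 0.093 in ND, 0.73 in NS and -0.017, 0.0066 and 0.12 at 200, 250 and 300 mM sorbitol, and its mean was under 100 CPM in ND, in NS and at 200 mM. Lncenc1, a non-coding RNA abundant in naive stem cells, lay between -0.36 and 0.30, and was under the minimum in ND and NS. All its intervals included 0, as did those of Platr10, which was measured in ND alone, of 2410006H16Rik and of 4833439L19Rik, so no direction is given for these genes.

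Transcripts for proteins of the nuclear speckle, the compartment in which Malat1 resides, were higher on balance. Pnn (chr12:59066884-59073998, plus strand), which encodes pinin, a protein of nuclear speckles and desmosomes, was 214 CPM in Malat1-rich against 129 CPM in Malat1-poor barcodes of ND, and 231 against 138 CPM in NS. In sorbitol, levels were 169 against 96.4 CPM at 200 mM, 210.3 against 109 CPM at 250 mM and 155 against 95.9 CPM at 300 mM. Its log2 ratios were 0.73 in ND, 0.74 in NS and 0.81, 0.95 and 0.69 at 200, 250 and 300 mM sorbitol, all past 1.5-fold. Thrap3, an SR-related splicing and transcription factor, had log2 ratios of 0.59 in ND, 0.50 in NS and 0.44, 0.39 and 0.43 at 200, 250 and 300 mM sorbitol. Bclaf1, its close relative, had 0.52 in ND, 0.49 in NS and 0.18, 0.21 and 0.62 at 200, 250 and 300 mM sorbitol. Ratios of all 3 were above 0 in every library, but the intervals of Bclaf1 at 200 and 250 mM sorbitol included 0. Over all measured genes, ratios above 0 were found for 838 of 1536 in ND, 744 of 1472 in NS and 786 of 1518, 803 of 1613 and 872 of 1667 at 200, 250 and 300 mM sorbitol. The SR and speckle list held 42 genes, and ratios above 0 were found for 26 of 29 in ND, 23 of 28 in NS and 20 of 27, 21 of 29 and 21 of 29 at 200, 250 and 300 mM sorbitol. Its median log2 ratio was 0.21 in ND, 0.21 in NS and 0.092, 0.21 and 0.19 at 200, 250 and 300 mM sorbitol. Members at least 1.5-fold higher numbered 2 in ND, 2 in NS and 1, 1 and 2 at 200, 250 and 300 mM sorbitol, where 1.7% to 2.36% of all measured genes were, and none was 1.5-fold lower. Counts of 1 or 2 genes do not set the list apart from that share.

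A list of genes for large chromatin and nuclear proteins behaved similarly, with medians of 0.094 in ND, 0.35 in NS and 0.32, 0.23 and 0.27 at 200, 250 and 300 mM sorbitol. Ratios above 0 were found for 20 of 23 in ND, 22 of 22 in NS and 24 of 26, 24 of 28 and 22 of 27 at 200, 250 and 300 mM sorbitol. Over all measured genes they were found for 838 of 1536 in ND, 744 of 1472 in NS and 786 of 1518, 803 of 1613 and 872 of 1667 at 200, 250 and 300 mM sorbitol. Atrx, a chromatin remodeller of heterochromatin, was 796 CPM in Malat1-rich against 516 CPM in Malat1-poor barcodes of ND, and 606 against 379 CPM in NS. With sorbitol it was 862 against 573 CPM at 200 mM, 1208 against 791 CPM at 250 mM and 1175 against 803 CPM at 300 mM. Its log2 ratios of 0.63 in ND, 0.68 in NS and 0.59, 0.61 and 0.55 at 200, 250 and 300 mM sorbitol differed little between the libraries. Cenpf, a large kinetochore protein of G2 and mitosis, had 0.62 in ND, 0.60 in NS and 0.37, 0.55 and 0.035 at 200, 250 and 300 mM sorbitol, close to 0 at 300 mM only. Macf1, which stands in this list although it is a cytoskeletal linker of microtubules and actin, had 0.65 in ND, 0.81 in NS and 0.57, 0.45 and 0.53 at 200, 250 and 300 mM sorbitol.

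The 12 highest genes by the naming rule, which ranks genes by their smallest ratio over the libraries, were not all nuclear. Besides Pnn, Neat1, Kcnq1ot1, Atrx and Macf1 they were Golgb1 (giantin, a Golgi matrix protein), Supt6 (a histone chaperone of transcription elongation), Dst (dystonin, a cytoskeletal linker), Psmd6 (a proteasome subunit), Myh9 (non-muscle myosin heavy chain), Pdia4 (a protein disulfide isomerase of the endoplasmic reticulum) and Akap12 (a kinase anchoring protein). Their log2 ratios lay between 0.41 and 1.07, and all 60 intervals lay above 0. The rule selected these genes for being higher, so this states how large the differences were and is no support for them. Golgb1 was 133 CPM in Malat1-rich against 90.0 CPM in Malat1-poor barcodes of ND, and 145 against 81.5 CPM in NS. The sorbitol libraries gave 189.9 against 109.9 CPM at 200 mM, 208 against 122 CPM at 250 mM and 147 against 98.5 CPM at 300 mM. Dst had log2 ratios of 0.69 in ND, 0.88 in NS and 0.47, 0.61 and 0.52 at 200, 250 and 300 mM sorbitol, with the highest value in NS. Among endoplasmic reticulum chaperones, Pdia4 had 0.44 in ND, 0.73 in NS and 0.64, 0.75 and 0.51 at 200, 250 and 300 mM sorbitol and Hsp90b1 had 0.35 in ND, 0.37 in NS and 0.51, 0.58 and 0.33 at 200, 250 and 300 mM sorbitol. That list had a median of 0.19 in ND, 0.31 in NS and 0.12, 0.10 and 0.053 at 200, 250 and 300 mM sorbitol.

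**Figure D2:**
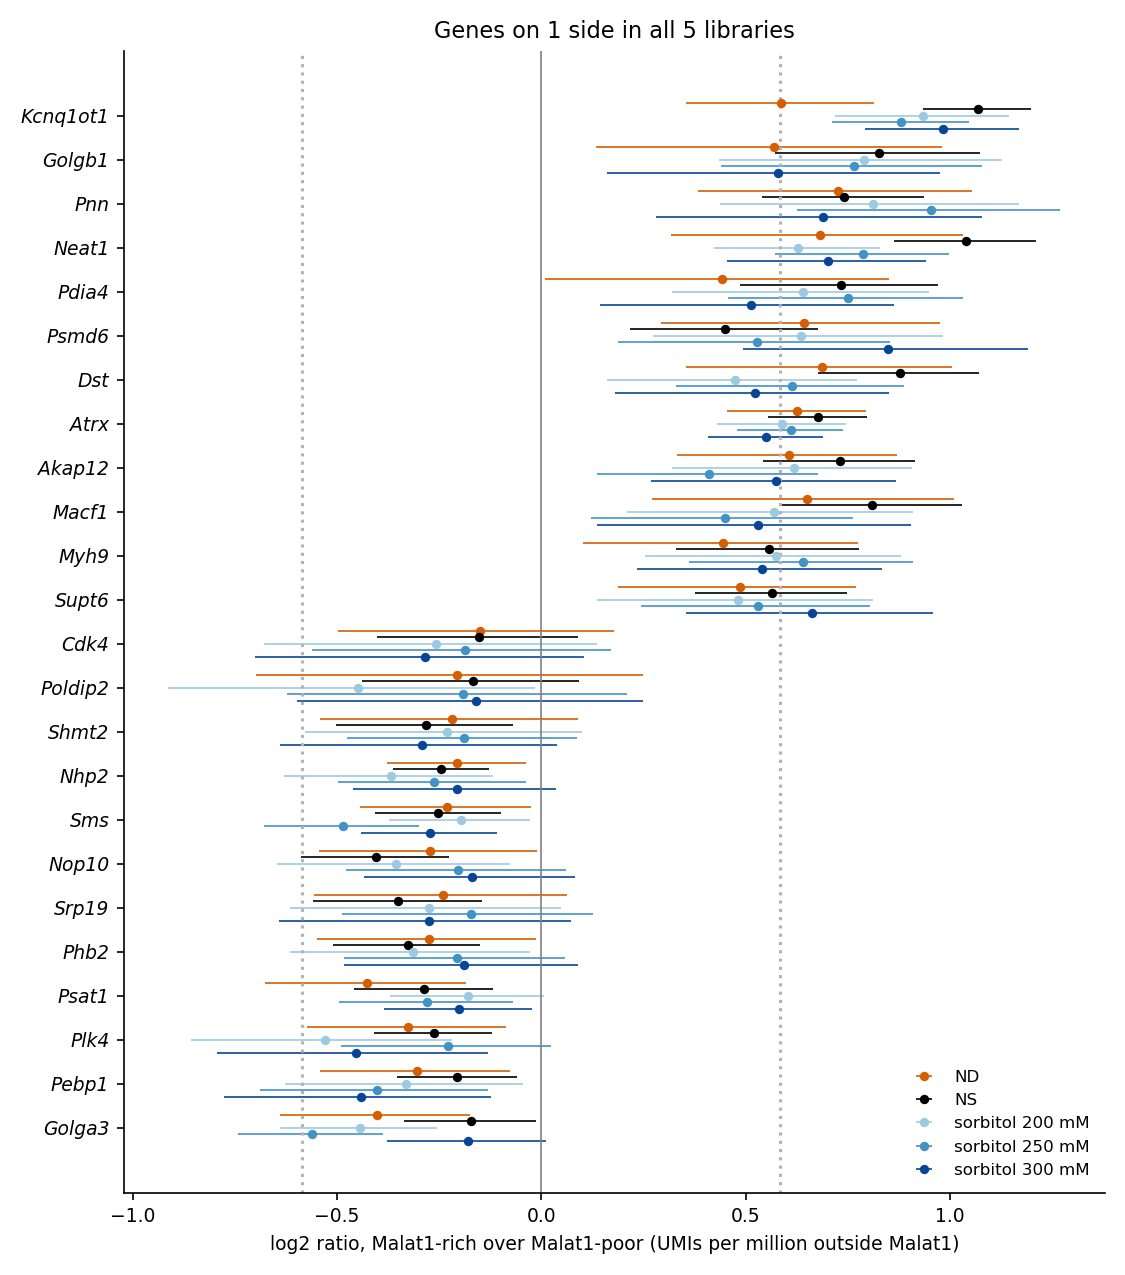
Log2 ratio of the level in Malat1-rich over that in Malat1-poor barcodes (CPM outside Malat1) for the 12 highest and the 12 lowest named genes in the 5 libraries, with points for ratios and bars for exact 95% intervals of counting error. Dotted lines mark 1.5-fold in either direction; Kcnq1ot1, Neat1 and Pnn lie at or past it in all 5 libraries, and the lowest genes stay inside it.

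The 12 lowest genes differed less. Their log2 ratios lay between -0.56 and -0.15, and 35 of 60 intervals lay below 0. They were Plk4 (a kinase of centriole duplication), Golga3 (a Golgi protein), Pebp1 (an inhibitor of Raf kinase), Phb2 (prohibitin 2 of the inner mitochondrial membrane), Nhp2 and Nop10 (both subunits of box H/ACA small nucleolar ribonucleoproteins), Sms (spermine synthase), Shmt2 and Psat1 (enzymes of glycine and serine metabolism), Srp19 (a subunit of the signal recognition particle), Poldip2 and Cdk4 (a kinase of G1 progression). The rule selected these genes for being lower, so their direction is no support for them. The interval of Cdk4 included 0 in every library. Those of Shmt2 and Srp19 lay below 0 in NS alone, and that of Poldip2 at 200 mM sorbitol alone. Plk4 was 369 CPM in Malat1-rich against 462 CPM in Malat1-poor barcodes of ND, and 399 against 479 CPM in NS. Under sorbitol it was 201 against 291 CPM at 200 mM, 295 against 345 CPM at 250 mM and 205 against 280.1 CPM at 300 mM. Golga3 was 403 CPM in Malat1-rich against 532 CPM in Malat1-poor barcodes of ND, and 322 against 362 CPM in NS. In sorbitol, levels were 549 against 747 CPM at 200 mM, 601 against 887 CPM at 250 mM and 596 against 676 CPM at 300 mM, which are log2 ratios of -0.40 in ND, -0.17 in NS and -0.44, -0.56 and -0.18 at 200, 250 and 300 mM sorbitol. Pebp1 had -0.30 in ND, -0.21 in NS and -0.33, -0.40 and -0.44 at 200, 250 and 300 mM sorbitol. Nop10 had -0.27 in ND, -0.40 in NS and -0.35, -0.20 and -0.17 at 200, 250 and 300 mM sorbitol, with its lowest value in NS.

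Ribosomal protein mRNAs were slightly lower in Malat1-rich barcodes of every library. Their share of UMIs outside Malat1 was 25.3% in Malat1-rich against 26.3% in Malat1-poor barcodes of ND, 27.2% against 29.5% in NS, 25.4% against 26.2% at 200 mM, 22.1% against 23.4% at 250 mM and 21.05% against 22.1% at 300 mM sorbitol. The log2 ratio of the sum was -0.056 in ND, -0.12 in NS and -0.047, -0.083 and -0.068 at 200, 250 and 300 mM sorbitol, and NS, with an interval of -0.12 to -0.11, differed most. No ribosomal protein gene was past 1.5-fold in either direction in any library. Of those measured, 58 of 81 in ND, 80 of 81 in NS and 61 of 81, 73 of 82 and 68 of 83 at 200, 250 and 300 mM sorbitol had a ratio below 0. Over all measured genes, 698 of 1536 in ND, 728 of 1472 in NS and 732 of 1518, 810 of 1613 and 795 of 1667 at 200, 250 and 300 mM sorbitol did. Of the 81 measured in every library, 42 were lower in all 5 and 1 was higher in all 5. Of all 1170 genes measured in every library, 204 were lower in all 5 and 210 higher. Rpl37, of the large subunit, was 4596 CPM in Malat1-rich against 5209.6 CPM in Malat1-poor barcodes of ND, and 6280.4 against 7118 CPM in NS. With sorbitol it was 5089.6 against 5979 CPM at 200 mM, 4104 against 4653 CPM at 250 mM and 4933 against 5382 CPM at 300 mM. Rps12, of the small subunit, had log2 ratios of -0.10 in ND, -0.18 in NS and -0.080, -0.16 and -0.16 at 200, 250 and 300 mM sorbitol. Rpl31 had 0.0024 in ND, -0.26 in NS and -0.13, -0.23 and -0.25 at 200, 250 and 300 mM sorbitol, close to 0 in ND.

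Translation factors were slightly lower in NS and under sorbitol but not in ND, with single members on both sides. Their list medians were 0.041 in ND, -0.051 in NS and -0.062, -0.047 and -0.082 at 200, 250 and 300 mM sorbitol. The log2 ratio of the sum was 0.012 in ND, -0.055 in NS and -0.049, -0.071 and -0.058 at 200, 250 and 300 mM sorbitol. Its interval included 0 in ND and lay below 0 in the other libraries. Eif3a, the largest subunit of initiation factor eIF3, had log2 ratios of 0.35 in ND, 0.47 in NS and 0.47, 0.34 and 0.57 at 200, 250 and 300 mM sorbitol. Eif4g1, the scaffold of the cap-binding complex, had 0.074 in ND, 0.17 in NS and 0.21, 0.36 and 0.30 at 200, 250 and 300 mM sorbitol. Ratios of both were above 0 in all 5 libraries, but the intervals of Eif4g1 in ND and at 200 mM included 0. By contrast Eif5a, which encodes an elongation factor, had -0.073 in ND, -0.17 in NS and -0.17, -0.37 and -0.19 at 200, 250 and 300 mM sorbitol. Its ratios were below 0 in all 5, but its interval in ND included 0.

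Mitochondrially encoded mRNAs were lower in Malat1-rich barcodes in 4 libraries and slightly higher in NS, where the sign turned to give -0.045 under median-of-ratios scaling. The share of all 13 genes together, of UMIs outside Malat1, was 4.70% in Malat1-rich against 5.26% in Malat1-poor barcodes of ND, 4.22% against 4.12% in NS, 5.38% against 5.91% at 200 mM, 5.37% against 6.14% at 250 mM and 5.90% against 6.40% at 300 mM sorbitol. The log2 ratio of the sum was -0.16 in ND, 0.035 in NS and -0.14, -0.19 and -0.12 at 200, 250 and 300 mM sorbitol. The interval in NS was 0.021 to 0.048. Ratios below 0 were found for 10 of 13 in ND, 3 of 13 in NS and 9 of 13, 9 of 13 and 9 of 13 at 200, 250 and 300 mM sorbitol. Over all measured genes they were found for 698 of 1536 in ND, 728 of 1472 in NS and 732 of 1518, 810 of 1613 and 795 of 1667 at 200, 250 and 300 mM sorbitol.

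The 13 mitochondrial genes did not move together. mt-Nd3, a subunit of complex I, was 2531 CPM in Malat1-rich against 3407 CPM in Malat1-poor barcodes of ND, and 1892 against 2218 CPM in NS. The sorbitol libraries gave 1787 against 2511 CPM at 200 mM, 2610.3 against 3285 CPM at 250 mM and 2747 against 3399 CPM at 300 mM. It was lower in Malat1-rich barcodes of every library. So were mt-Nd1, with log2 ratios of -0.25 in ND, -0.11 in NS and -0.22, -0.37 and -0.25 at 200, 250 and 300 mM sorbitol, and mt-Cytb, with -0.23 in ND, -0.021 in NS and -0.092, -0.17 and -0.10 at 200, 250 and 300 mM sorbitol. The intervals of mt-Cytb in NS and at 200 mM included 0. By contrast mt-Nd5, another complex I subunit, was 495 CPM in Malat1-rich against 378 CPM in Malat1-poor barcodes of ND, and 671 against 436 CPM in NS. Under sorbitol it was 547 against 406 CPM at 200 mM, 752 against 523 CPM at 250 mM and 599 against 424 CPM at 300 mM. Its log2 ratios of 0.39 in ND, 0.62 in NS and 0.43, 0.53 and 0.50 at 200, 250 and 300 mM sorbitol were above 0 in every library. Those of mt-Atp8, an ATP synthase subunit, were 0.19 in ND, 0.35 in NS and 0.32, 0.18 and 0.28 at 200, 250 and 300 mM sorbitol. mt-Nd6, the mRNA transcribed from the opposite mitochondrial strand, was 143 CPM in Malat1-rich against 129 CPM in Malat1-poor barcodes of ND, and 133 against 92.3 CPM in NS. In sorbitol, levels were 368 against 189.8 CPM at 200 mM, 273 against 132 CPM at 250 mM and 319 against 164 CPM at 300 mM. Its log2 ratio was 0.15 in ND, 0.53 in NS and 0.96, 1.05 and 0.96 at 200, 250 and 300 mM sorbitol, which was larger at every sorbitol dose than in NS and smallest in ND, a difference between libraries that was not tested. mt-Nd6 overlaps the end of mt-Nd5 on the other strand, and without a stated use of strand their reads cannot be fully told apart. The abundant cytochrome oxidase mRNA mt-Co1 had -0.10 in ND, 0.072 in NS and -0.080, -0.16 and -0.089 at 200, 250 and 300 mM sorbitol.

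Nuclear genes of oxidative phosphorylation, whose mRNAs are translated in the cytosol, had medians of -0.14 in ND, -0.10 in NS and -0.085, -0.097 and -0.061 at 200, 250 and 300 mM sorbitol. Ratios below 0 were found for 25 of 31 in ND, 24 of 31 in NS and 22 of 31, 23 of 31 and 20 of 31 at 200, 250 and 300 mM sorbitol, and none was past 1.5-fold. Over all measured genes, ratios below 0 were found for 698 of 1536 in ND, 728 of 1472 in NS and 732 of 1518, 810 of 1613 and 795 of 1667 at 200, 250 and 300 mM sorbitol. Atp5g1, a subunit of the ATP synthase ring, had log2 ratios of -0.48 in ND, -0.31 in NS and -0.33, -0.23 and -0.11 at 200, 250 and 300 mM sorbitol. Cox7a2, of cytochrome oxidase, had -0.25 in ND, -0.22 in NS and -0.24, -0.34 and -0.069 at 200, 250 and 300 mM sorbitol. Ratios of both were below 0 in all 5 libraries, NS included, but both intervals at 300 mM included 0.

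Several differences were graded along much of the range of Malat1 shares and not limited to its end. For this view, chosen after the values had been seen, barcodes of each library were ordered by Malat1 share and divided into 20 bins of 500, the last of which is the Malat1-rich group. The CPM of Kcnq1ot1 in the highest against the lowest bin was 439 against 233 in ND, 522 against 151 in NS, 494 against 195 at 200 mM, 754 against 299 at 250 mM and 689 against 249 at 300 mM sorbitol. That of Pnn was 214 against 85.03 in ND, 231 against 95.5 in NS, 169 against 67.2 at 200 mM, 210.3 against 59.8 at 250 mM and 155 against 55.7 at 300 mM sorbitol. Neat1 did not climb over the lowest bins at 200, 250 and 300 mM sorbitol, and its course in ND was uneven. In ND it was 94.7 CPM in bin 1, 127 in bin 8, 98.9 in bin 9 and 187 in bin 20. At 200 mM it was 323 CPM in bin 1, 286 in bin 4 and 526 in bin 20. At 250 mM it was 256 CPM in bin 1, 247 in bin 7 and 462 in bin 20. At 300 mM it was 252 CPM in bin 1, 241 in bin 9 and 407 in bin 20. Mitochondrial mRNAs in ND and in the sorbitol libraries declined along most of the range, whereas in NS they were lowest in the middle bins. There the lowest bin held 45826, the tenth held 39266 and the highest held 42166 CPM. The mitochondrial value of NS against its Malat1-poor barcodes thus averages over a course that bends.

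**Figure D3:**
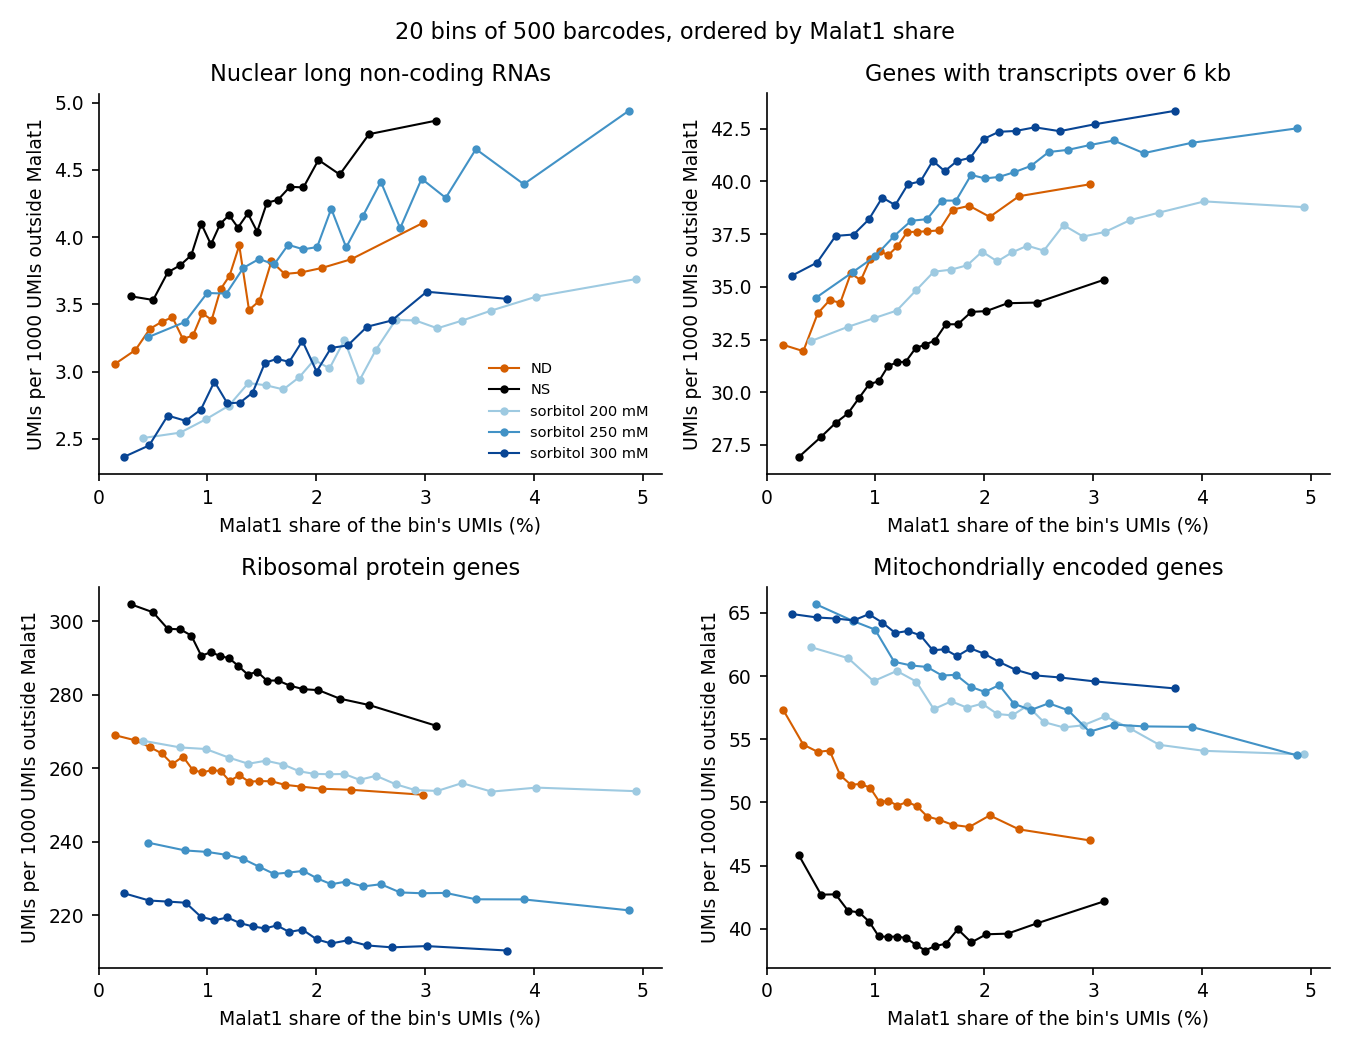
Summed level of 4 gene groups (UMIs per 1000 UMIs outside Malat1; vertical axes do not start at 0) in 20 bins of 500 barcodes, against the pooled Malat1 share of the bin (%), with 1 line per library. Nuclear long non-coding RNAs and genes with transcripts over 6 kb climb with the Malat1 share and ribosomal protein genes decline in all 5 libraries, while mitochondrial genes decline in 4 and follow a U shape in NS.

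Most measured genes of the G2 and M phases had ratios above 0. Their list had medians of 0.24 in ND, 0.17 in NS and 0.24, 0.32 and 0.23 at 200, 250 and 300 mM sorbitol, and ratios above 0 were found for 11 of 14 in ND, 12 of 16 in NS and 12 of 16, 11 of 15 and 11 of 14 at 200, 250 and 300 mM sorbitol. Over all measured genes they were found for 838 of 1536 in ND, 744 of 1472 in NS and 786 of 1518, 803 of 1613 and 872 of 1667 at 200, 250 and 300 mM sorbitol. Top2a, the topoisomerase of chromosome condensation, had log2 ratios of 0.19 in ND, 0.29 in NS and 0.42, 0.43 and 0.34 at 200, 250 and 300 mM sorbitol. Hmmr, a spindle protein, had 0.40 in ND, 0.49 in NS and 0.28, 0.51 and 0.42 at 200, 250 and 300 mM sorbitol. Ratios of both were above 0 in all 5 libraries, but the intervals of Hmmr in ND and at 200 mM included 0. The S phase list had medians of -0.021 in ND, -0.11 in NS and -0.13, -0.074 and -0.092 at 200, 250 and 300 mM sorbitol, with members on both sides: ratios below 0 were found for 7 of 11 in ND, 5 of 9 in NS and 6 of 8, 7 of 9 and 7 of 9 at 200, 250 and 300 mM sorbitol. Over all measured genes, ratios below 0 were found for 698 of 1536 in ND, 728 of 1472 in NS and 732 of 1518, 810 of 1613 and 795 of 1667 at 200, 250 and 300 mM sorbitol. The log2 ratio of the S phase sum was 0.028 in ND, 0.0051 in NS and -0.048, -0.095 and -0.066 at 200, 250 and 300 mM sorbitol, and its interval lay below 0 at 250 mM but included 0 in the other libraries. The difference between the phases was not tested. Hells, a chromatin remodeller of S phase, had -0.26 in ND, 0.0050 in NS and -0.13, -0.27 and -0.081 at 200, 250 and 300 mM sorbitol. Histone genes, whose near-identical copies make single values uncertain, had medians of -0.051 in ND, -0.12 in NS and -0.044, -0.14 and -0.034 at 200, 250 and 300 mM sorbitol, with H2afz at -0.080 in ND, -0.23 in NS and -0.24, -0.14 and -0.15 at 200, 250 and 300 mM sorbitol.

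Most of the pluripotency genes named here were lower or near 0. Nanog, a core factor of naive cells, was 163 CPM in Malat1-rich against 189 CPM in Malat1-poor barcodes of ND, and 98.8 against 130.1 CPM in NS. With sorbitol it was 77.8 against 134 CPM at 200 mM, 167 against 183 CPM at 250 mM and 97.3 against 136 CPM at 300 mM. Its log2 ratios of -0.22 in ND, -0.40 in NS and -0.79, -0.13 and -0.49 at 200, 250 and 300 mM sorbitol were below 0 in all 5 libraries, but the intervals in ND and at 250 mM reached above 0 (0.14 and 0.21 at their upper bounds). Pou5f1 (Oct4) had -0.23 in ND, -0.23 in NS and -0.26, -0.010 and -0.16 at 200, 250 and 300 mM sorbitol, and its interval lay below 0 in NS alone. Trim28, a corepressor that silences retroelements, had -0.45 in ND, -0.29 in NS and -0.42, -0.29 and -0.14 at 200, 250 and 300 mM sorbitol. Zfp42, whose promoter drives the reporter, had -0.19 in ND, -0.048 in NS and -0.38, -0.21 and 0.065 at 200, 250 and 300 mM sorbitol and changed sign. Etv5, a target of FGF signalling, had -0.42 in ND, -0.10 in NS and -0.35, -0.20 and -0.53 at 200, 250 and 300 mM sorbitol. L1td1, an RNA-binding protein of pluripotent cells, went the other way with 0.66 in ND, 0.58 in NS and 0.34, 0.20 and 0.36 at 200, 250 and 300 mM sorbitol. The naive list had medians of -0.19 in ND, -0.0060 in NS and -0.21, -0.17 and -0.011 at 200, 250 and 300 mM sorbitol, and the core list had -0.11 in ND, -0.051 in NS and -0.099, -0.063 and -0.016 at 200, 250 and 300 mM sorbitol. Sums did not share 1 direction. The naive sum had -0.076 in ND, -0.015 in NS and -0.100, -0.036 and 0.068 at 200, 250 and 300 mM sorbitol. Its interval lay below 0 in ND and at 200 mM and above 0 at 300 mM. The core sum had -0.0047 in ND, 0.061 in NS and -0.12, -0.078 and 0.010 at 200, 250 and 300 mM sorbitol. Its interval lay above 0 in NS and below 0 at 200 and 250 mM.

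Heat shock genes and ATF4 targets differed little in their medians. Their median log2 ratios were 0.14 in ND, 0.0061 in NS and 0.050, -0.049 and 0.11 at 200, 250 and 300 mM sorbitol for heat shock genes. They were -0.037 in ND, 0.0016 in NS and 0.055, -0.094 and -0.11 at 200, 250 and 300 mM sorbitol for ATF4 targets. The heat shock sum had 0.064 in ND, -0.020 in NS and 0.016, 0.019 and 0.12 at 200, 250 and 300 mM sorbitol. Its intervals lay above 0 in ND and at 300 mM and included 0 elsewhere. The ATF4 sum had -0.13 in ND, -0.045 in NS and -0.060, -0.074 and -0.11 at 200, 250 and 300 mM sorbitol. Its intervals lay below 0 in ND and at 300 mM and included 0 elsewhere. Within them Dnaja1 and Hspa4, both cytosolic chaperones, were higher in all 5 libraries, with log2 ratios of 0.27 to 0.51 and 0.24 to 0.39, and Psat1 and Shmt2, both targets of ATF4, were among the lowest genes. The hyperosmotic list had medians of 0.089 in ND, 0.22 in NS and 0.23, 0.16 and -0.17 at 200, 250 and 300 mM sorbitol, and ratios above 0 were found for 2 of 3 in ND, 2 of 2 in NS and 3 of 5, 3 of 5 and 2 of 6 at 200, 250 and 300 mM sorbitol. Of its members, Slc38a2, an amino acid transporter induced by hypertonicity, had 0.22 in ND, 0.31 in NS and 0.32, 0.16 and 0.0044 at 200, 250 and 300 mM sorbitol. Ddit4, an inhibitor of mTOR signalling, had 0.089 in ND, 0.12 in NS and 0.23, 0.26 and 0.26 at 200, 250 and 300 mM sorbitol. The hyperosmotic sum had 0.11 in ND, 0.20 in NS and 0.15, 0.12 and -0.055 at 200, 250 and 300 mM sorbitol. Its intervals lay above 0 in NS and at 200 and 250 mM and included 0 in ND and at 300 mM. Slc2a1, a glucose transporter in the glycolysis list, had 0.28 in ND, 0.31 in NS and 0.29, 0.52 and 0.13 at 200, 250 and 300 mM sorbitol. Immediate early genes were represented by Jund, an AP-1 subunit, at 0.013 to 0.31, and p53 targets by Mdm2 at -0.16 to 0.49. The sum of all 14 immediate early genes, most of them under the minimum, had 0.21 in ND, 0.29 in NS and 0.27, 0.32 and 0.26 at 200, 250 and 300 mM sorbitol. Its interval lay above 0 in all 5 libraries.

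Markers of fibroblasts and neuroectoderm were low in both groups. No fibroblast or feeder marker of 14 and no neuroectoderm marker of 11 was measured at the minimum of 100 CPM in any library. Their summed levels were 18.3 to 36.4 in Malat1-rich against 20.4 to 24.996 CPM in Malat1-poor barcodes for fibroblasts, with Col1a2, Col3a1, Postn, Dcn, Lum and Acta2 at 0 in the Malat1-rich barcodes of every library. For neuroectoderm they were 52.0 to 70.4 against 50.9 to 83.5 CPM, with Neurog2 and Hes5 at 0. The CPM that a count of 0 still allows (3 UMIs) was 7.28 in ND, 2.80 in NS and 6.86, 6.50 and 7.48 at 200, 250 and 300 mM sorbitol. The summed CPM of trophoblast markers was 597 in Malat1-rich against 603 in Malat1-poor barcodes of ND, 416 against 403 in NS, 414 against 359.7 at 200 mM, 566 against 396 at 250 mM and 509 against 369 at 300 mM sorbitol. The log2 ratio of this sum was -0.015 in ND, 0.047 in NS and 0.20, 0.51 and 0.46 at 200, 250 and 300 mM sorbitol, and its interval lay above 0 at 250 and 300 mM (0.32 to 0.70 and 0.25 to 0.68) but included 0 in ND, in NS and at 200 mM. Of 14 trophoblast markers, those past the minimum numbered 3 in ND, 1 in NS and 0, 1 and 1 at 200, 250 and 300 mM sorbitol, and the 1 measured at 300 mM had a ratio of -0.054. The summed CPM of primitive endoderm markers was 226 in Malat1-rich against 222 in Malat1-poor barcodes of ND, 414 against 355 in NS, 448 against 498 at 200 mM, 572 against 620.4 at 250 mM and 746 against 688 at 300 mM sorbitol, with Sparc as the sole member past the minimum. The part of these markers in the differences above was not tested. The sole measured gene of the cleavage-stage list was Eif1a, a broadly expressed initiation factor, at 0.050 to 0.29.

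**Figure D4:**
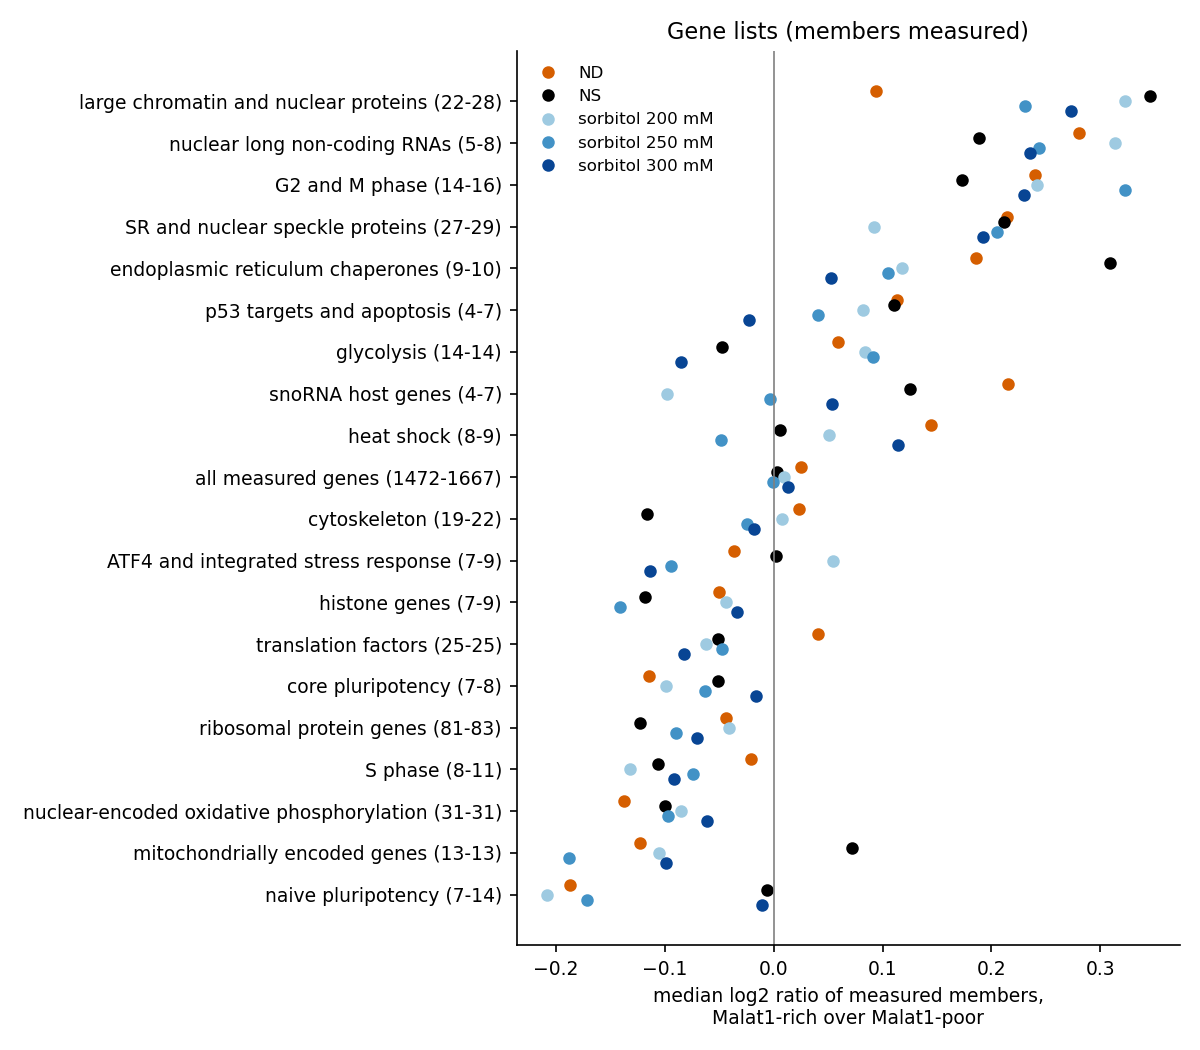
Median log2 ratio, Malat1-rich over Malat1-poor barcodes, of the measured members of gene lists in the 5 libraries, 1 point per library, with the lowest and highest number of measured members in parentheses; lists with fewer than 4 measured members in a library are left out. Large nuclear proteins, nuclear long non-coding RNAs, G2 and M phase genes, speckle proteins and endoplasmic reticulum chaperones lie above 0 in all 5 libraries. Ribosomal protein, S phase, nuclear-encoded oxidative phosphorylation, histone, naive pluripotency and core pluripotency genes lie below 0 in all 5.

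The highest genes had long transcripts. This property was examined after the values had been seen. The longest annotated transcript of the 12 highest genes had a median of 8854 bases, against 2331 for the 12 lowest and 2619 for the 1169 measured genes with a transcript in GENCODE M21. Genes with transcripts of at most 1 kb (164 genes) had median log2 ratios of -0.079 in ND, -0.12 in NS and -0.075, -0.079 and -0.061 at 200, 250 and 300 mM sorbitol. Those of 2 to 4 kb (424 genes) had 0.011 in ND, 0.0080 in NS and -0.013, -0.023 and -0.0070 at 200, 250 and 300 mM sorbitol, and those over 8 kb (63 genes) had 0.19 in ND, 0.25 in NS and 0.15, 0.19 and 0.16 at 200, 250 and 300 mM sorbitol. In all 5 libraries the median climbed from band to band, except between the 2 shortest bands at 250 mM sorbitol. Spearman's rho across genes was 0.31 in ND, 0.47 in NS and 0.28, 0.32 and 0.26 at 200, 250 and 300 mM sorbitol. Without ribosomal protein and mitochondrial genes it was 0.30 in ND, 0.47 in NS and 0.28, 0.32 and 0.25 at 200, 250 and 300 mM sorbitol. These genes share libraries and depth and are not independent points.

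Runs of A inside transcripts, at which oligo(dT) can also prime, were counted as well. Genes with a run of at least 8 A had a lower median ratio than genes without in 4 of the 6 bands of length and a higher one in 2. Among transcripts over 8 kb, the 46 genes with such a run had a median of 0.15 over the libraries, and the 17 genes without had 0.25. Kcnq1ot1 holds 30 such runs, Malat1 holds 1 and Neat1 none. Among transcripts of 2 to 4 kb, genes that span at most 10 kb of genome had a median of -0.046 (129 genes), those of 20 to 40 kb 0.049 (125 genes) and those over 40 kb 0.0092 (59 genes). The part of transcript length in the differences of single genes was not tested.

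**Figure D5:**
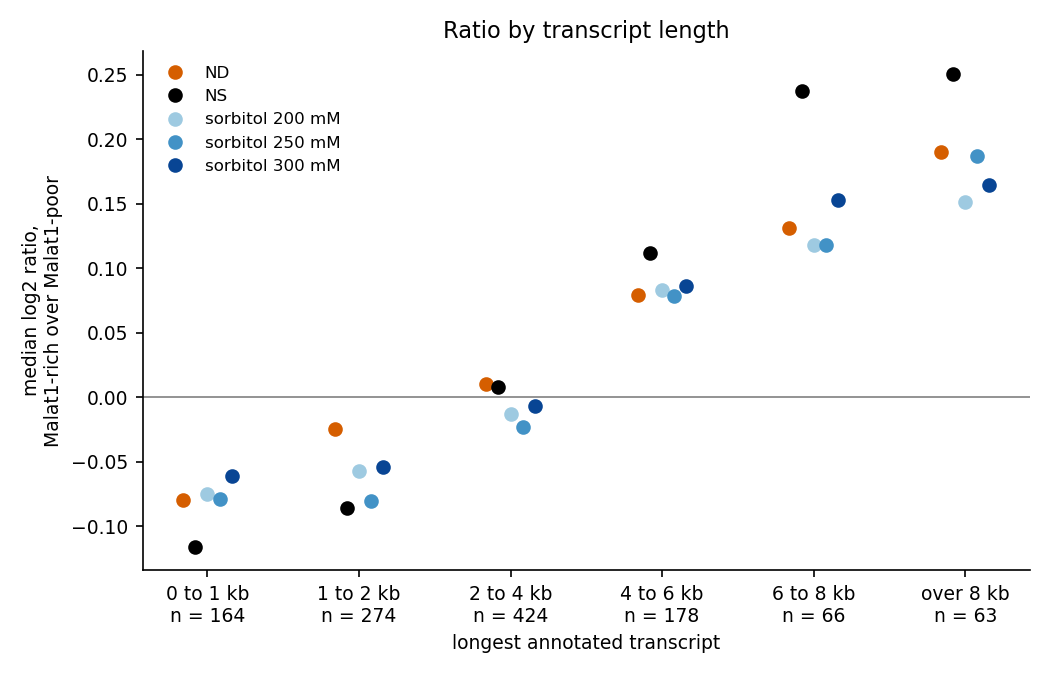
Median log2 ratio, Malat1-rich over Malat1-poor barcodes, in 6 bands of the longest annotated transcript (kb; n is the number of genes measured in every library), with 1 point per library. Medians lie below 0 in all 5 libraries up to 2 kb and above 0 from 4 kb on, and NS has both the lowest median under 1 kb and the highest over 8 kb.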

How the data were processed

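Droplet single-cell RNA libraries of 5 conditions were analysed, 1 library each. The deposited values are UMI counts, not normalized. Per the file headers, the authors' counts came from Cell Ranger 6.0.1. Per the submitters' processing notes, Seurat 4.1.1, R 4.1.2 and genome build mm10 were used, in steps not specified there. The labels' protocol names Trizol and a Lexogen 3′ kit, whereas the files are barcode matrices, and which steps apply was not settled. How strand was used, which annotation was counted and how barcodes were chosen is not stated in the labels or headers, so overlapping, antisense and near-identical genes (Kcnq1ot1, Tsix, histone genes, Gm26917, Gm42418) are uncertain.

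Within each library, barcodes were ranked by Malat1 UMIs over all UMIs. UMIs were summed over each group and scaled to CPM, per 1000000 UMIs outside Malat1. Ratios have exact conditional binomial 95% intervals, and levels exact Poisson ones. PCR and capture error are not covered. With 1 library per condition no test was made, and no adjusted value is given. Even a sign permutation over the 5 libraries could not go below a 2-sided p of 0.0625. Genes needed a mean of both groups of at least 100 CPM. Doublets were not called. Leaving out the 5% of barcodes with most UMIs was an alternative, beside a barcode filter, a larger group, divided UMIs, 10 depth classes, median-of-ratios scaling and a lower minimum.

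Named genes were the 12 highest and 12 lowest on the same side in all libraries, ranked by their smallest absolute ratio and leaving out mitochondrial, ribosomal protein and unnamed models, plus all measured nuclear long non-coding RNAs and up to 3 members with the largest median ratio from each other of 28 lists. All mitochondrial genes were named after their values were seen. The members and lists were chosen with earlier results of these data known. GENCODE M21, on GRCm38 (mm10), supplied transcripts and 1-based coordinates. Spread over barcodes was compared with binomial sampling of the library's profile. The scripts recovered known ratios in simulated counts and used Python 3.11.15, numpy 2.4.6, scipy 1.17.1, pandas 2.3.3 and matplotlib 3.10.9.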

Additional observations from a re-analysis of the deposited data

Results flagged for a closer look

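Mitochondrial mRNAs gave values on opposite sides of 0 in different libraries. The summed mitochondrial log2 ratio of Malat1-rich over Malat1-poor barcodes was -0.19 at 250 mM sorbitol, against 0.035 in NS, and neither interval reached 0. The same held for single genes. At 250 mM against NS, the log2 ratio was -0.21 against 0.13 for mt-Nd2, -0.16 against 0.072 for mt-Co1, -0.21 against 0.042 for mt-Co3 and -0.24 against 0.084 for mt-Nd4. mt-Co2, a subunit of cytochrome oxidase, was -0.21 in ND and 0.045 in NS. These pairs are the farthest apart among the libraries. With 1 library per condition the difference between libraries was not tested. NS was also the deepest library. Median-of-ratios scaling moved every gene in NS by -0.079, which took the sum to -0.045 and mt-Co1, mt-Co2 and mt-Co3 below 0.

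Sparc, a secreted matrix protein and primitive endoderm marker, was -0.30 at 200 mM sorbitol and 0.23 in NS. Its interval at 200 mM ended just below 0. This difference between libraries was not tested either.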

How the results depend on the processing

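Of the sums recomputed, those of ribosomal protein genes, mitochondrial mRNAs and nuclear long non-coding RNAs, all kept their direction except that of mitochondrial mRNAs in NS. Sums of the other lists were not recomputed, and those within the shift of the scaling, given last, have no settled sign. With the highest 10% of barcodes that value was 0.0042, and with median-of-ratios scaling it was -0.045. The other values that moved did so by more than their counting interval. For ribosomal protein genes these were -0.10 in NS and -0.073 at 250 mM with the highest 10%, -0.11 and -0.069 with barcodes chosen on 1 part of their UMIs and measured on the other, and -0.071 in ND, -0.20 in NS and -0.067, -0.13 and -0.083 at 200, 250 and 300 mM sorbitol with median-of-ratios scaling. For mitochondrial mRNAs they were -0.16 at 250 mM with the highest 10%, -0.14 in ND and -0.17 at 250 mM with divided UMIs, and -0.16 and -0.24 at 200 and 250 mM with median-of-ratios scaling. For nuclear long non-coding RNAs they were 0.33 at 250 mM with the highest 10%, 0.22 in ND with divided UMIs, 0.24 in NS with median-of-ratios scaling, and 0.55 in NS and 0.53 and 0.52 at 250 and 300 mM without Gm26917 and Gm42418, an alternative chosen after seeing the data. Median-of-ratios scaling moved all genes by -0.016 in ND, -0.079 in NS and -0.020, -0.043 and -0.015 at 200, 250 and 300 mM sorbitol.

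Counts of genes past 1.5-fold depended most on the settings. Genes higher numbered 12 in ND, 14 in NS and 18, 22 and 20 at 200, 250 and 300 mM sorbitol with the highest 10%, 51 in ND, 29 in NS and 60, 66 and 62 at 200, 250 and 300 mM sorbitol with divided UMIs, which leave fewer UMIs per group and also changed the barcodes chosen (294 to 355 of 500 shared), 15 in NS with median-of-ratios scaling, and 117 in ND, 81 in NS and 119, 158 and 138 at 200, 250 and 300 mM sorbitol with a minimum of 50 CPM, which admits more genes. Genes lower numbered 1 in ND, 0 in NS and 0, 3 and 1 at 200, 250 and 300 mM sorbitol with the highest 10%, 24 in ND, 3 in NS and 23, 40 and 29 at 200, 250 and 300 mM sorbitol with divided UMIs, 4 in ND, 3 in NS and 8, 16 and 10 at 200, 250 and 300 mM sorbitol with median-of-ratios scaling and 44 in ND, 2 in NS and 53, 44 and 59 at 200, 250 and 300 mM sorbitol with a minimum of 50. In ND they numbered 5 after removing barcodes under 500 genes or over 20% mitochondrial UMIs, 5 with barcodes chosen within 10 classes of depth and 4 without the 5% of barcodes with most UMIs. Beyond the genes that a lower minimum admits, the causes were not tested.

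The 12 highest genes were above 0 in all 5 libraries under each of the 6 alternatives run on them. The 12 lowest were below 0 in all 5 under each except divided UMIs, where this held for 9. Both sets were selected on these same UMIs, so their kept direction is no independent support for them. Median-of-ratios scaling, a shift of -0.079 to -0.015, could not turn the highest genes, whose ratios were at least 0.41. It could only move the lowest genes farther below 0. The direction of the median over libraries was unchanged for 92 to 96 of 96 named genes. Malat1-rich and Malat1-poor barcodes were compared within each library, and no test over the 5 libraries was made. Values in ND and the sorbitol libraries rest on fewer UMIs than those in NS, and genes under 100 CPM stayed out of the counts and list medians except where the minimum was 50.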

Other observations

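Other gene groups gave mixed values. Among small nucleolar RNA host genes, whose introns yield the guide RNAs of ribosome assembly, Nop56 had log2 ratios of 0.27 in ND, 0.27 in NS and -0.098, -0.0025 and 0.35 at 200, 250 and 300 mM sorbitol and Nop58 had 0.20 in ND, 0.13 in NS and 0.050, -0.33 and 0.12 at 200, 250 and 300 mM sorbitol, with list medians of 0.21 in ND, 0.13 in NS and -0.098, -0.0036 and 0.054 at 200, 250 and 300 mM sorbitol. In the cytoskeleton list, Actg1, a cytoplasmic actin, had 0.022 in ND, -0.13 in NS and -0.27, -0.20 and -0.22 at 200, 250 and 300 mM sorbitol and Tuba1b, an alpha tubulin, had -0.17 in ND, -0.18 in NS and 0.030, -0.21 and -0.054 at 200, 250 and 300 mM sorbitol. Ptma, which stands in this list although prothymosin alpha is a nuclear protein, had 0.18 in ND, 0.22 in NS and 0.27, 0.16 and 0.24 at 200, 250 and 300 mM sorbitol and was higher in Malat1-rich barcodes in all 5 libraries. Glycolysis genes had medians of 0.059 in ND, -0.048 in NS and 0.084, 0.091 and -0.086 at 200, 250 and 300 mM sorbitol, and Gpi1, an isomerase of the pathway, had 0.19 in ND, 0.023 in NS and 0.22, 0.28 and 0.25 at 200, 250 and 300 mM sorbitol.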
